A study of Homo sapiens with 2 samples.

Results

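Genes of N-glycan processing in the Golgi were followed in NCI-H446, a human cell line established from small cell lung carcinoma, with and without overexpressed MTA1. The 10 genes encode the class I mannosidases MAN1A1, MAN1A2 and MAN1C1, the mannosidases of the second class MAN2A1 and MAN2A2, and the N-acetylglucosaminyltransferases MGAT1, MGAT2, MGAT4A, MGAT4B and MGAT5. They were taken by gene symbol from the 22465 genes that the arrays name, and each was measured by 1 transcript cluster, the unit in which the array reports a gene. The set was chosen by the log2 difference of MAN1A1, which passed 2-fold between these same arrays, with the enzymes of the neighbouring steps added by name. The difference of MAN1A1 is therefore a description and supports nothing further.

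One group carried a control vector and the other a plasmid for MTA1, which belongs to the histone deacetylase and remodelling complex NuRD, and both were kept as stable transfectants. Both groups share the parental line, and whether either was 1 clone or a pool is not given in the sources used here. RNA of each group was hybridised to 1 Affymetrix array. With 1 array per group there is no spread between replicates, no test was possible, and the differences describe 2 arrays only. The number of arrays limits the precision.

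N-linked glycans are attached to proteins in the endoplasmic reticulum as a mannose-rich precursor and are rebuilt in the Golgi. Class I mannosidases trim the outer mannoses, MGAT1 adds the first N-acetylglucosamine, and mannosidase II then removes further mannoses so that MGAT2 can start the second antenna. MGAT4A, MGAT4B and MGAT5 add further branches, and the MGAT5 branch is known as a preferred site for the extended chains that galectins bind. In tumour cells, changed branching of this kind is known to alter adhesion and the residence of receptors at the cell surface.

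The promoters of MAN1A1 and MGAT2 are shown because these genes had the largest higher and the largest lower difference of the 10. Each line gives 250 bases before the annotated start, from RefSeq on GRCh38.p14, 5′ to 3′ on the strand of the gene. Capitals mark matches, on either strand, to CAGGTG (the E-box form known from Snail binding), CCAAT (the CCAAT box) and GGGCGG (the GC box), and no marked match overlaps another. The MAN1A1 window is chr6:119349762-119350011 on the minus strand, and the MGAT2 window is chr14:49620549-49620798 on the plus strand.
MAN1A1: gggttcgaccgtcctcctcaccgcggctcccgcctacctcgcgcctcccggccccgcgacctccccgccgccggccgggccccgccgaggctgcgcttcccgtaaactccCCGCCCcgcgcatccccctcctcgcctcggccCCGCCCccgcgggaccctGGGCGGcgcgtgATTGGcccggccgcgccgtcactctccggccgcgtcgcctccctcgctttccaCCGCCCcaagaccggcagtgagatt
MGAT2: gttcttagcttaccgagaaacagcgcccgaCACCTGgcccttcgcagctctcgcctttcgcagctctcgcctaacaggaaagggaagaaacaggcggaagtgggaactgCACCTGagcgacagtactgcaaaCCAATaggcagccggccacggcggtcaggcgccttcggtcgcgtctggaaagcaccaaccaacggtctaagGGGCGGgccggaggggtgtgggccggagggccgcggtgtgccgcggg

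The MAN1A1 window held 4 GC boxes, 1 CCAAT match and no match to CAGGTG, while the MGAT2 window held 1 GC box, 1 CCAAT match and 2 matches to CAGGTG. Promoter windows were matched for 8 of the 10 genes, all but MAN1A2 and MGAT4A, and several starts per gene gave 19 windows, which are not independent of each other. A GC box was present in 12 of the 19, against 42.6% of 35116 windows of all genes, and CCAAT in 6 of the 19, against 32.0%. CAGGTG was present in 6 of the 19, in windows of MGAT1, MGAT2, MGAT5 and MAN2A2, against 17.5% of all windows. These matches describe letters in the reference, and no binding was measured in these samples.

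The deposited values were log2 signals with medians of 3.67 (control) and 3.68 (MTA1). MTA1 itself stood at 7.31 with vector and at 9.82 with the MTA1 plasmid. A gene was kept where its higher value reached 3.62, called the floor here, which left 14451 genes. The floor is the median over all transcript clusters of their mean signal on both arrays. No background probes or detection calls were used, so genes just above the floor may not be detected. The median difference of these genes, MTA1 minus control, was -0.01, and 46.4% of them were above 0. The 4 hybridisation spike-ins, which are added to each hybridisation mix, were higher on the MTA1 array by 0.23 to 0.28. At 829 features a value exceeded 16, the most that a 16-bit scanner can give on this scale. Some step besides RMA on raw readings is therefore likely, and the fold sizes depend on it, but none is stated in the sources used here. Of 8 measured neuroendocrine markers 3 reached the floor (ENO2, UCHL1 and INSM1), whereas SYP, CHGA and NCAM1 lay below it on both arrays. All 4 measured leukocyte markers, 3 of 4 endothelial markers and 3 of 5 fibroblast markers lay below it, and the other endothelial and fibroblast markers stood at 4.12 or less on both arrays. Of 3 measured squamous markers, KRT14 stood at 3.84 with vector and 4.19 with MTA1 and SPRR1B at 3.27 and 3.65, so that SPRR1B reached the floor on the MTA1 array alone, while KRT5 was below it at 3.35 and 3.31. The part of these markers in the results below was not tested.

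Of the 10 genes, 8 reached the floor on at least 1 array, and 1 of them, MAN1A1, was past 2-fold on the higher side. None was past 2-fold on the lower side. Over all 14451 genes the corresponding shares were 0.291% higher and 0.339% lower, and since MAN1A1 led to the choice of the set, nothing is read from that share. Of the 8 genes, 4 were above 0, against 46.4% of all genes, and 4 below, and their median difference was 0.07. Over all 10, with those below the floor included, the median was -0.01. The genes above 0 include MAN1A1, whose sign was fixed by the choice of the set. Nothing is therefore read from this count or from these medians.

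**Figure D1:**
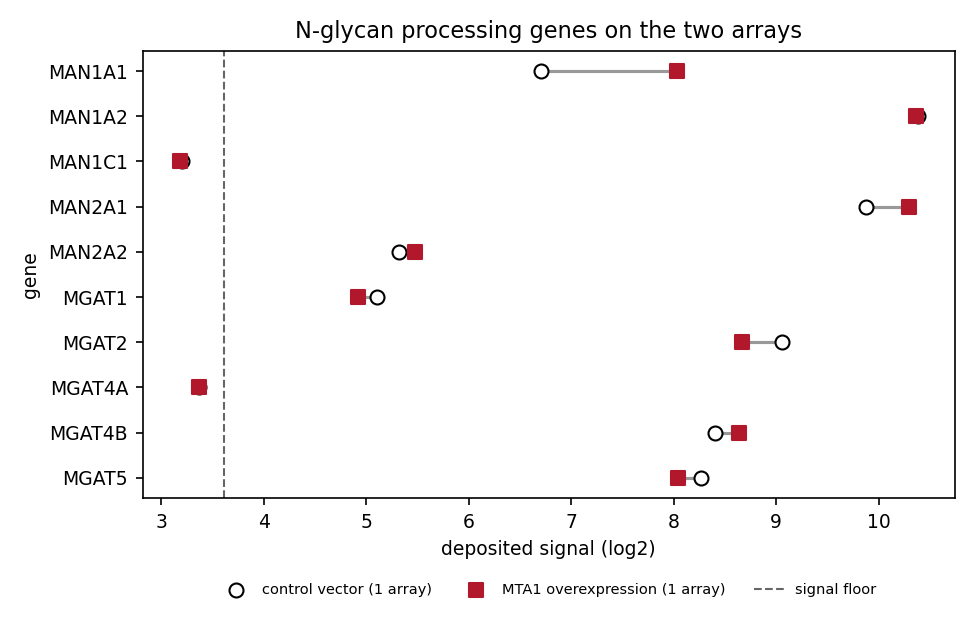
Deposited log2 signal (x axis) of each of the 10 genes (y axis) on the control array (open circles) and the MTA1 array (filled squares), with a line joining the pair and a dashed line at the signal floor of 3.62. MAN1A1 has the longest line, from 6.71 to 8.04, and MAN1C1 and MGAT4A lie left of the floor on both arrays.

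MAN1A1, the Golgi mannosidase IA, had a log2 signal of 6.71 with vector and 8.04 with MTA1. The MTA1 array was higher by 1.33 on the log2 scale, or 2.51-fold. That difference ranked 16 among the higher differences of 14451 genes, and 0.221% of them differed by at least as much in either direction. Because MAN1A1 was chosen by this difference, its place among all genes is a description only. With all genes split by mean signal into 4 bins of like size, the genes in the bin of MAN1A1 had differences from -0.35 to 0.36 between their 5th and 95th percentiles. Where a gene had several transcript clusters, their differences varied with a pooled SD of 0.267 over 149 genes, which covers clusters on the same RNA and not cultures.

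Neither of the other class I mannosidases came near this difference. MAN1A2, mannosidase IB, which trims the same kind of mannose linkage, stood at 10.38 with vector and 10.37 with MTA1. MAN1C1, mannosidase IC, was under the floor with values of 3.20 and 3.18, so no fold is given for it. The difference of MAN1A1 exceeded that of MAN1A2 by 1.35, a gap that no constant shift of 1 array can move. Over the scalings of the arrays that gap lay between 1.35 and 1.37. Since MAN1A2 was close to level, the gap is almost entirely the difference by which MAN1A1 was chosen. It is likewise a description only.

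The mannosidases that act after MGAT1 were both somewhat higher on the MTA1 array as deposited. MAN2A1, Golgi mannosidase II, stood at 9.88 with vector and 10.30 with MTA1, a difference of 0.42 or 1.34-fold, and 7.11% of genes differed by at least as much. MAN2A2, the related mannosidase IIx, stood at 5.32 and 5.48, a difference of 0.16 that 36.9% of genes matched or exceeded. With the arrays shifted so that the hybridisation spike-ins were level, MAN2A1 was higher by 0.17 and MAN2A2 turned to -0.09.

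The transferases that start the antennae were lower on the MTA1 array. MGAT1, whose product every hybrid and complex glycan needs, stood at 5.11 with vector and 4.92 with MTA1, a difference of -0.18. MGAT2, which starts the second antenna, stood at 9.05 and 8.67, a difference of -0.39, or 1.31-fold lower, and 8.46% of genes differed by at least as much. Under each scaling of the arrays both stayed below 0, MGAT1 between -0.43 and -0.14 and MGAT2 between -0.63 and -0.33. MAN2A1 and MGAT2, which act in succession, lay 0.81 apart in their differences.

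The transferases for further branches pointed both ways. MGAT4B stood at 8.40 with vector and 8.64 with MTA1, a difference of 0.23 that turned to -0.01 when shifted to the spike-ins. Its relative MGAT4A lay below the floor at 3.37 on both arrays. MGAT5 stood at 8.27 and 8.04, a difference of -0.23, and was below 0 under every scaling, from -0.47 to -0.17. MGAT4B and MGAT5 differed by less than the 5th to 95th percentile range of genes of like signal, from -0.35 to 0.36, and so did MAN1A2, MAN2A2 and MGAT1 within the ranges of theirs. MAN2A1 and MGAT2 lay just outside, beyond 0.36 and -0.35.

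**Figure D2:**
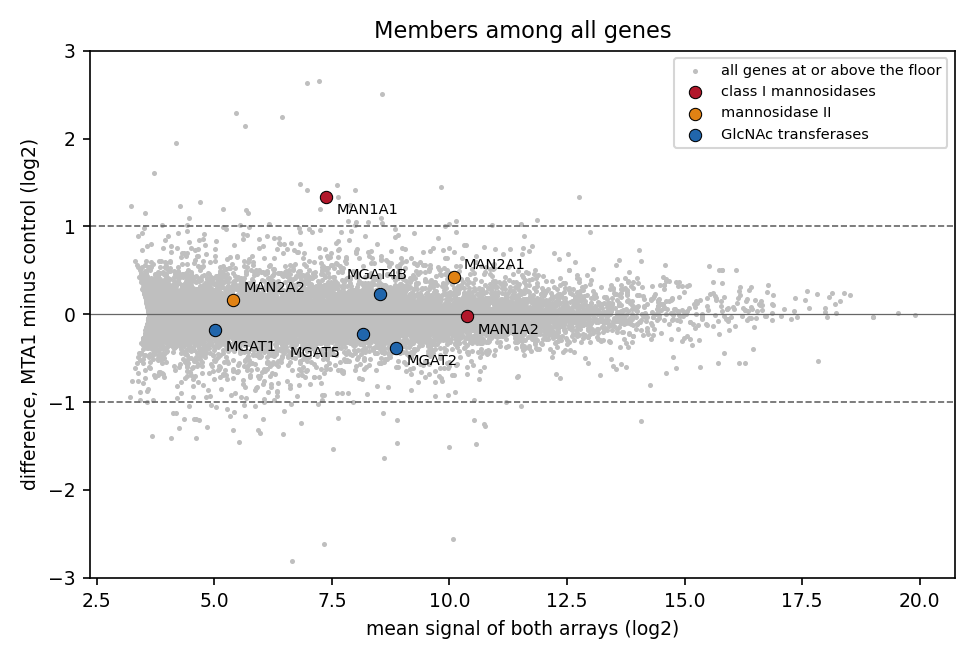
Difference between the arrays, MTA1 minus control (log2, y axis), against the mean signal of both arrays (log2, x axis), with 1 grey point for each of the 14451 genes at or above the floor and coloured points for the 8 N-glycan processing genes among them. Dashed lines mark 2-fold, and 2 genes lie beyond the plotted range of 3. MAN1A1 lies above the upper line and the other 7 lie in the grey band.

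The genes beside MAN1A1 on chromosome 6, in the RefSeq order, were close to level. On one side FAM184A stood at 3.64 with vector and 3.72 with MTA1, ASF1A, a histone chaperone gene, at 7.97 and 8.03, and MCM9, a helicase gene, at 6.20 and 6.13. On the other side TBC1D32 stood at 5.54 and 5.48 and GJA1, the connexin 43 gene, at 6.82 and 7.07, while HSF2 was not analysed here. The largest difference among these 5 neighbours was 0.25, that of GJA1.

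In the order of all differences, the protein-coding genes just above MAN1A1 were CHAC1, a glutathione-degrading enzyme, at 1.33, SFN, which encodes 14-3-3 sigma, at 1.34, and SEMA3F, a secreted guidance factor, at 1.41. Just below it came ATP8B1, a lipid flippase, at 1.24, the pseudogene USP17L6P at 1.20 and PLAT, tissue plasminogen activator, at 1.20. Likeness here is the size of 1 difference over 2 arrays, and none of these 6 genes lies on chromosome 6.

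The other genes of protein glycosylation were described by 13 lists, of which 130 genes reached the floor. None was 2-fold apart, where 0.291% of all genes were higher and 0.339% lower by that much, so a count of 0 is near the background. The largest difference in size was 0.64, against 1.33 for MAN1A1. At a smaller threshold, a log2 difference of 0.32 in size, 9 of the 130 were higher, or 6.92%, against 6.00% of all genes, and 3 were lower, or 2.31%, against 6.28%. Of the 8 processing genes 2 passed this threshold on the higher side, MAN1A1 and MAN2A1, and 1 on the lower side, MGAT2. MAN1A1 was chosen for passing 2-fold on these arrays, so its passing here was certain. Neither this count nor the size of its difference beside the lists is read as a result.

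Genes that build and attach the precursor were close to level. In the list for the lipid-linked precursor 10 of 18 genes were above 0 (against 46.4% of all genes). The median was 0.01, and 1 gene was past the 0.32 threshold. That gene was ALG2, a mannosyltransferase of the precursor, at 8.76 with vector and 8.13 with MTA1, or 1.55-fold lower. ALG14, which anchors an early N-acetylglucosamine transferase, stood at 7.72 and 7.52, and MPDU1, needed for the use of dolichol-linked mannose, at 11.01 and 11.18. In the oligosaccharyltransferase list none of 9 genes was past it, with a median of 0.01 and a catalytic subunit, STT3A, at 13.71 and 13.88.

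For trimming, folding and disposal in the endoplasmic reticulum, 6 of 19 genes (against 46.4% of all genes) lay above 0 and 13 below, and the median was -0.06. PRKCSH, the beta subunit of glucosidase II, stood at 12.83 with vector and 13.21 with MTA1 and was the only one of these 19 past the 0.32 threshold. LMAN1, a cargo receptor for glycoproteins, stood at 15.25 and 14.97, and MOGS, glucosidase I, at 6.14 and 5.91. Of 5 measured genes for other branching and core steps, the 3 that reached the floor lay near 0, with the core fucosyltransferase FUT8 at 8.22 and 8.13 and the endomannosidase MANEA at 8.89 and 8.77.

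Downstream of branching, 6 of 9 genes for galactose and N-acetyllactosamine extension were above 0, against 46.4% of all genes, and the median was 0.04. B3GNT2, which extends such chains, stood at 7.04 with vector and 7.40 with MTA1, or 1.28-fold higher, and GCNT2, which branches them, at 7.08 and 7.26. Of 5 sialyltransferase genes at or above the floor, 1 was above 0, against 46.4% of all genes, and 4 were below. Their median was -0.07, and ST3GAL6 stood at 5.18 and 4.92. The fucosyltransferases of the antennae were mostly below the floor, and FUT5 and FUT7, the 2 that reached it, stood at 4.70 and 4.53 and at 3.77 and 3.71.

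Nucleotide sugar supply was close to level, with 8 of 18 genes above 0 (against 46.4% of all genes) and a median of -0.03. GFUS, which completes GDP-fucose, stood at 7.62 with vector and 8.03 with MTA1, or 1.33-fold higher. GFPT1, the entry enzyme of the hexosamine pathway, stood at 11.33 and 11.54, and SLC35A3, a Golgi carrier of UDP-N-acetylglucosamine, at 10.06 and 10.24. For Golgi trafficking and ion balance, 4 of 14 genes (against 46.4% of all genes) lay above 0 and 10 below, the median was -0.05, and none was past the 0.32 threshold. GOLPH3, which holds glycosyltransferases in the Golgi, stood at 12.23 and 11.95, and SLC39A8, a manganese carrier, at 10.66 and 10.36. With the spike-ins level the median of every list was below 0, including those that were above 0 as deposited. The medians of the lists for the endoplasmic reticulum, Golgi trafficking, sialyl caps, antenna fucose, other branching and mucin-type O-glycans were below 0 under every setting. Some came close to 0, with -0.0006 for Golgi trafficking, -0.004 for antenna fucose and -0.01 for sialyl caps at the nearest. The median of all genes was itself -0.01 as deposited.

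**Figure D3:**
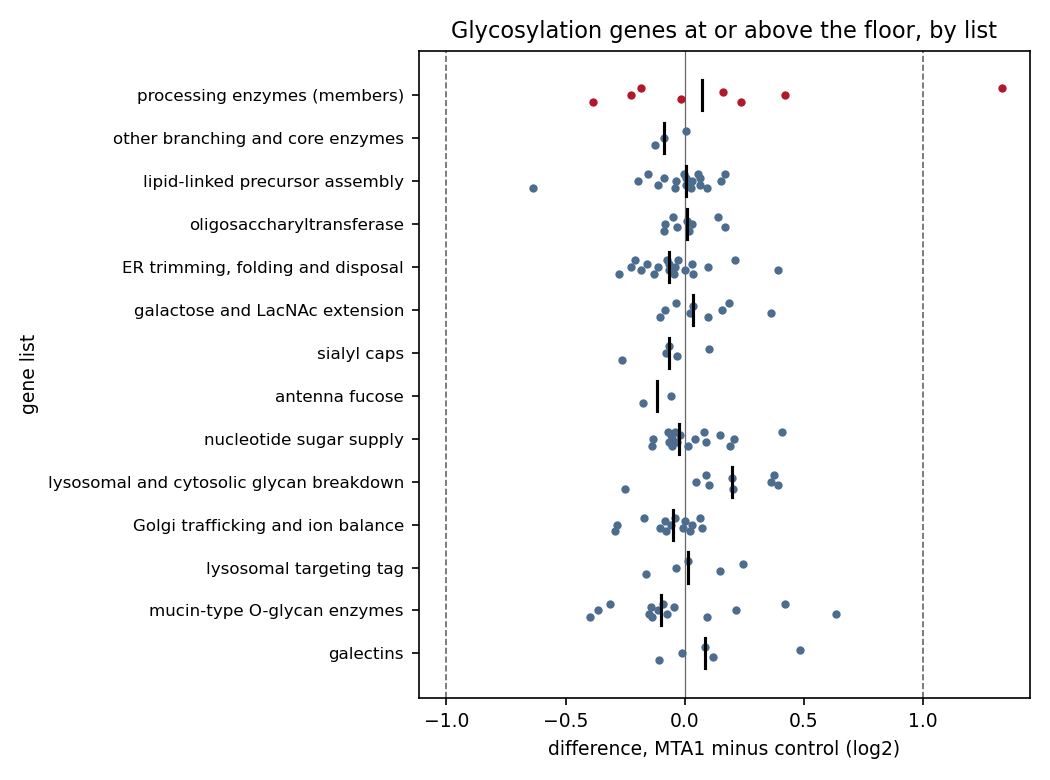
Difference between the arrays, MTA1 minus control (log2, x axis), of every gene at or above the floor in the N-glycan processing set (red) and in the 13 other glycosylation lists (blue), with 1 point per gene, a black bar at each list's median and dashed lines at 2-fold. MAN1A1, at 1.33, is the only point beyond a dashed line.

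The scaling of the arrays moved the processing genes together. As deposited 4 of the 8 were above 0, after repeated quantile normalisation or loess 5 were, and after the shift to the spike-ins 2 were, MAN1A1 and MAN2A1. MAN1A1 lay between 1.09 and 1.38 across the scalings, past 2-fold in each. The spike-in shift of 0.24 also moved the median of all genes to -0.26.

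**Figure D4:**
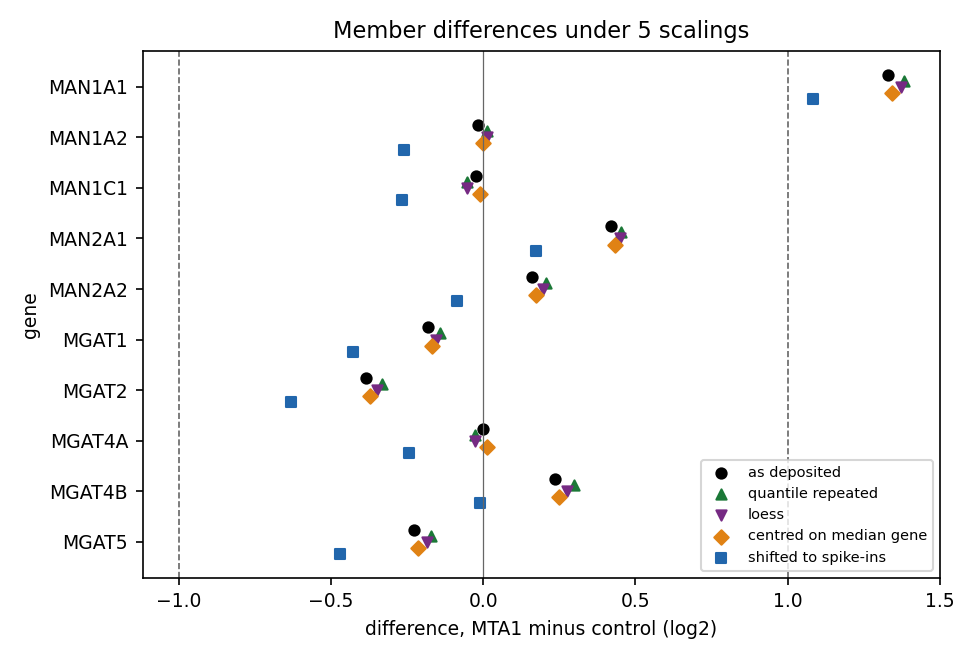
Difference between the arrays, MTA1 minus control (log2, x axis), of each of the 10 genes (y axis) under 5 scalings, shown by symbol, with dashed lines at 2-fold. MAN1A1 stays right of the upper 2-fold line, MGAT1, MGAT2 and MGAT5 stay left of 0, and the squares of the spike-in shift lie to the left for every gene.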

How the data were processed

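Per the submitters' processing notes the authors made the deposited log2 signals with RMA. Its version, the summarisation level, the annotation release and the genome build were not given in the sources used here. Values were used as deposited. The platform's probe table gave 23781 transcript clusters 1 gene symbol and 1543 several (not used for names), and 42204 were unnamed here. Of the single symbols 21497 were updated by gene identifier through a RefSeq table of GRCh38.p14 and 2284 kept. A gene took its brightest cluster, by the mean of both arrays.

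The members and lists were chosen with earlier results of these data known. Named were all members, up to 4 genes per list by size of difference, 3 genes on each side of MAN1A1 by difference and by chromosomal order, MTA1 and the spike-ins. The order by difference passed over antisense, small RNA and uncharacterised genes. Of 169 genes in the 13 lists, 146 had a cluster and 130 reached the floor. The marker lists covered neuroendocrine, leukocyte, endothelial, fibroblast and squamous cells. Alternatives changed the scaling, the probe set per gene and the floor. The counting steps were tested on simulated data. Quantile normalisation and loess (span 0.3) were run with limma 3.58.1 in R 4.3.3, and all else in Python 3.11.15 (pandas 2.3.3, numpy 2.4.6, matplotlib 3.10.9).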

Additional observations from a re-analysis of the deposited data

How the results depend on the processing

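No paired analysis was possible because each group has 1 array. Across 8 alternative settings MAN1A1 was between 1.09 and 1.38, the count of members at least 2-fold higher was 1 and the count at least 2-fold lower was 0. Each member had 1 cluster, so the settings for the floor and the probe set could not change its difference. Only the changes of scaling could. The shift to the hybridisation spike-ins changed the counts of the other glycosylation genes past a log2 difference of 0.32 from 9 higher and 3 lower to 1 higher and 40 lower, since it subtracts 0.24 from every difference. It moved the counts of all genes past 2-fold from 42 higher and 49 lower to 17 and 118. It also turned MAN2A2 to -0.09 and MGAT4B to -0.01. MAN1A2 and MGAT4A, both near 0 as deposited, changed sign between scalings. A floor at the 75th percentile, a log2 signal of 5.67, left 6 members. Values were counted as moved when they changed by more than the SD of 0.267 between clusters of a gene. The spike-in shift of 0.24 is smaller than this SD. No gene's difference could therefore count as moved under it, even where the sign changed. Spread between cultures was not measured, and differences of small size cannot be told from it.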

Other observations

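Genes that break down glycans in the lysosome and cytosol were above 0 in 8 of 9 cases, against 46.4% of all genes at or above the floor, with a median difference of 0.20, against -0.01. Of the 9, 3 were higher by a log2 difference of at least 0.32, which 6.00% of all genes were, and none was lower by as much. MANBA, the lysosomal beta-mannosidase, stood at 11.06 with vector and 11.45 with MTA1, or 1.31-fold higher. FUCA1, a lysosomal fucosidase, stood at 7.36 and 7.73, and CTBS, which cleaves the chitobiose core, at 8.10 and 8.46. FUCA2, a related fucosidase, was the 1 gene below 0, at 8.80 and 8.55. The median of the list turned to -0.05 when the arrays were shifted to the spike-ins. Of 5 genes for the mannose 6-phosphate tag that sends enzymes to the lysosome, 3 were above 0, against 46.4% of all genes. GNPTAB, a subunit of the tagging enzyme, stood at 9.41 and 9.65, and the receptor M6PR at 12.36 and 12.20.

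Mucin-type O-glycan enzymes differed in both directions. GALNT3 stood at 9.62 with vector and 10.26 with MTA1, or 1.55-fold higher, and GALNT1 at 14.33 and 14.75, or 1.34-fold higher. GALNT2 stood at 11.88 and 11.52, or 1.29-fold lower, and the core branching enzyme GCNT1 at 6.12 and 5.72, or 1.32-fold lower. All 3 GALNT genes encode enzymes that start O-glycans. The list held 4 genes above 0 and 10 below, where 46.4% of all genes were above 0. Its median was -0.10, against -0.01 for all genes. In each direction 2 genes passed a log2 difference of 0.32, which 6.00% of all genes did on the higher and 6.28% on the lower side. Among galectins, which bind galactose-ended chains, 5 genes reached the floor, with 3 above 0 and 2 below. Their median of 0.08 turned to -0.16 with the spike-ins level. LGALS1 stood at 13.59 and 14.07, or 1.40-fold higher, LGALS3 at 11.07 and 11.19, and LGALS9 at 3.81 and 3.70.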
